A study of Mus musculus with 7 samples.

Results

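Solute carriers are membrane proteins that move nutrients, ions and metabolites across the plasma membrane, the mitochondrial inner membrane and the membranes of other organelles. Each gene symbol starts with Slc and a family number, and the family number usually tells what is carried. Epidermis has no blood vessels of its own, so keratinocytes, its main cells, obtain glucose, amino acids, fatty acids, vitamins and metals through such carriers. Some carriers work as exchangers, others draw on the sodium gradient, and the mitochondrial carriers link the cytosol to respiration. The genes described here are all those of the deposited table whose symbol matches Slc followed by a digit. They number 129 of the 7091 genes listed, and 379 genes of the annotation GENCODE M21 carry such a symbol, so 250 were not analysed here. Of the 129, 128 are annotated as protein coding. Slc2a4rg-ps is a pseudogene and Slc9a3r1 encodes a scaffold protein that binds transporters, and the rule on names took both in.

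Bulk RNA sequencing was done on the epidermis of 7 mice, taken from skin in telogen, when hair follicles rest. The 4 KA mice were K14-CreERT;ABCA12-cKO, with a conditional Abca12 allele and CreERT, a recombinase that tamoxifen activates, under the keratin 14 promoter of basal keratinocytes. Abca12 itself encodes a lipid transporter of keratinocytes that the skin barrier needs. The 3 control mice were ABCA12-c/c without CreERT. Every mouse of both groups received tamoxifen in corn oil, 1 mg per 40 g of body weight on 3 successive days, beginning at 8 weeks of age, and was sampled 2 weeks afterwards. The comparison therefore holds the deletion together with an active recombinase. KA 1 and KA 2 were males and KA 3 and KA 4 females, while control 1 and control 3 were females and control 2 a male. Each library came from 1 mouse.

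The table lists only genes that the authors called between these same libraries, so the test repeated here on them is conditional on that choice. Reads in listed genes ran from 9590718 to 12761458 per library, which is not the depth of the libraries. Levels below are the authors' normalized reads, that is counts divided by a size factor per library, and log2 fold changes compare KA with control. Of the markers that define keratinocytes, 3 of 5 are listed (Krt5, Krt14 and Krt1), with summed normalized reads of 375357 to 428053 in controls and 949086 to 1034950 in KA. All 3 Langerhans cell markers were higher in KA (summed 16839 to 23014 in controls and 33078 to 50800 in KA), and of 4 listed T cell markers 1 was higher and 3 lower (1163 to 1500 and 635 to 732). Of 8 neutrophil and macrophage markers 4 are listed, 2 higher and 2 lower, with sums of 262 to 400 and 391.7 to 640. Endothelium (Pecam1, 11.4 to 17.6 and 34.5 to 55.4), adipocytes (Cidec, 1.89 to 9.28 and 15.6 to 41.5) and melanocytes (Dct, 102 to 205 and 52.9 to 117) have 1 listed marker each. Those of fibroblasts, muscle and mast cells were not analysed here. The part of these cells in the results on carriers was not tested, and in bulk RNA fewer cells of a type and less RNA per cell cannot be told apart.

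Promoters of the rising carriers Slc7a11, Slc16a1 and Slc5a1 are shown because these genes have the largest rises among amino acid, monocarboxylate and sugar carriers with a mean of at least 50 normalized reads. Each is the 250 bases before the start site in RefSeq on GRCm38.p6, read 5′ to 3′ on the strand of the gene. Capitals in Slc7a11 mark TGATGNAA, the letters shared by amino acid response elements, here in both orientations with first bases 66 and 47 bases before the start. In Slc16a1 they mark CACGTG, the E-box, starting 200 bases before the start, and TGACNNNGC, the core of antioxidant response elements, which overlaps it and starts 207 bases before. In Slc5a1 they mark CACGTG, which starts 143 bases before. The windows lie at chr3:50443614-50443863 (minus strand), chr3:104638414-104638663 (plus strand) and chr5:33103969-33104218 (plus strand).
Slc7a11: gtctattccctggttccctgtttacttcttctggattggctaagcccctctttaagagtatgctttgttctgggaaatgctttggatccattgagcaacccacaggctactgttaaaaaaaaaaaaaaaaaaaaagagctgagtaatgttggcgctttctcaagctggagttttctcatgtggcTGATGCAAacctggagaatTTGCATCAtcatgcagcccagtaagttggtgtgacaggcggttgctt
Slc16a1: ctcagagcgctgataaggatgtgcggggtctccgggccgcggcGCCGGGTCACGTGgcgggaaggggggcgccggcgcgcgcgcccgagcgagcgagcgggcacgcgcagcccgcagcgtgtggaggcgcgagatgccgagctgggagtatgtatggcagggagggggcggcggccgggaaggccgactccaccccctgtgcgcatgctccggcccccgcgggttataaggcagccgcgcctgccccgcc
Slc5a1: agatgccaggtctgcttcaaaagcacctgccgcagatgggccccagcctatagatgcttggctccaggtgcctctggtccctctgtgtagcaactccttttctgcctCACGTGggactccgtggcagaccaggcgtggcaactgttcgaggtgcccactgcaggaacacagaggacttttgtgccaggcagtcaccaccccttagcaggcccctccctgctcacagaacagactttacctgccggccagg

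Promoter windows of 300 bases, ending 50 bases after the start, were found for 99 of the 129 genes. Both strands of every window were searched for these motifs and for TGCACNC and TGCGCNC, 2 forms of the metal response core. A gene counted when any of its windows matched, and the number of windows per gene was not equalised. The comparison is with all 27025 symbols that had a window, whether or not they are among the listed genes. CACGTG stood in 19 of the 99 genes (19.2%), against 8.09% of all symbols. TGACNNNGC stood in 23.2% against 14%, TGCACNC in 20.2% against 14.2% and TGCGCNC in 34.3% against 17%. TGATGNAA, which was added after the data had been seen, stood in 3 genes (3.03% against 4.51%), namely Slc7a11, Slc26a10 and Slc50a1, and its longer form TGATGNAAT in none of the 99 (1.08% of all). CACGTG was present in 17.2% of the 58 higher and 26.5% of the 34 lower carriers with a window, so it was present among both. A match describes letters and not a bound site. Slc7a5 and Slc1a5 had no window.

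Of the 129 carriers, 123 had enough counts to be tested, and 122 of them (99.2%) passed an adjusted p-value of 0.05 in edgeR's quasi-likelihood test. All but a few of the tested genes passed (100% after rounding), so the call itself says nothing about carriers. Higher expression in KA was called for 70 carriers (56.9%, against 52.7% of all tested genes) and lower expression for 52 (42.3%, against 47.3%). A log2 fold change of at least 1 was called for 68 of 123 (55.3%, against 41.2%), 38 higher (30.9%, against 20.5%) and 30 lower (24.4%, against 20.8%). Changes of at least 2 on that scale were called for 22 (17.9%, against 13.1%). The median size of the change was 1.09 for carriers and 0.85 for all tested genes, and the median change was 0.56 and 0.36. KA and control libraries did not overlap for 119 of the tested carriers (96.7%, against 93.5%). Slc7a8, an exchanger of neutral amino acids, was the tested carrier that was not called (adjusted p = 0.0571), with 3.79, 9.28 and 40.9 normalized reads in controls and 66.3, 30.4, 97.1 and 24.9 in KA. Slc1a2, Slc6a12, Slc26a4, Slc35f1, Slc35g2 and Slc5a11 had too few counts for the test.

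**Figure D1:**
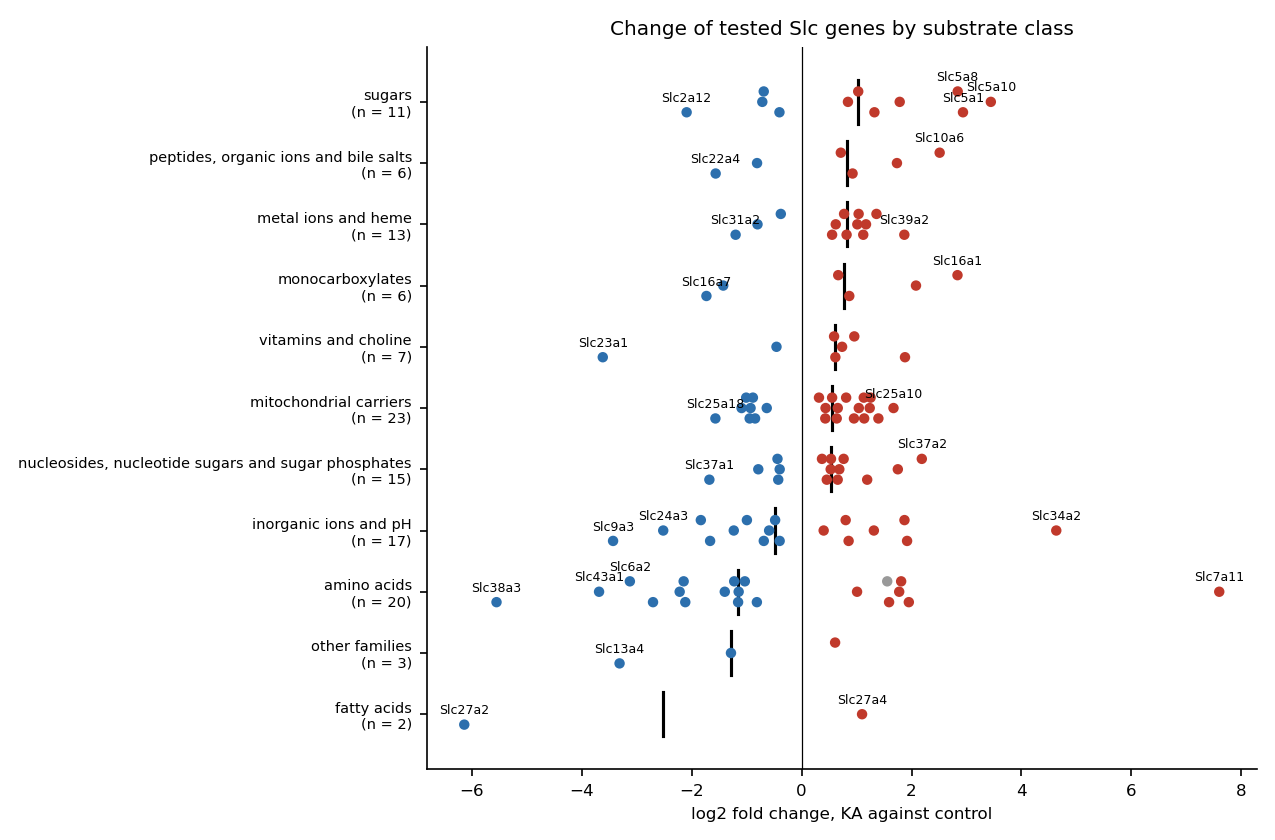
Log2 fold change (horizontal axis, KA against control) of the 123 tested carriers, 1 point per gene, in rows by substrate class with the number tested. Red points were called higher, blue lower, the grey point (Slc7a8) was not called, vertical bars are class medians and the vertical offset of points has no meaning. Medians of fatty acid carriers (-2.52, 2 genes), other families (-1.28, 3 genes), amino acid (-1.15) and inorganic ion carriers (-0.48) lie below 0. Those of the remaining classes lie above, with sugar carriers (1.03) the highest.

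Amino acid carriers changed in both directions, also within families. Of all tested genes 52.7% were called higher and 47.3% lower, with a median log2 fold change of 0.36. Of 22 amino acid carriers listed, 6 were called higher and 13 lower, with 1 not called and 2 not tested. Their median was -1.15. Those that rose include the cystine exchanger Slc7a11 and the leucine exchanger Slc7a5, while all 7 listed members of Slc6, the sodium and chloride dependent carriers, were lower in the authors' deposited table. All 6 called higher and 12 of the 13 called lower changed by at least 1 on the log2 scale. Among all tested genes 41.2% were called with such a change.

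Slc7a11, which exchanges cystine for glutamate and so feeds glutathione synthesis, lies at chr3:49892526-50443614 on the minus strand. It was nearly silent in controls, with 3.79, 1.03 and 2.41 normalized reads, and held 822, 317, 204 and 642 in KA. The 8 control reads and 1925 KA reads give a ratio of 206 (exact 95% interval 104 to 478, counting error only), and the fitted log2 fold change was 7.60 (SE 0.72, adjusted p = 4.24e-05 in edgeR's test). No KA library came near a control, and KA 1 and KA 4 held the highest levels. Per kb of gene length it rose from rank 127 of the 129 carriers in controls to rank 87 in KA.

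Slc7a5, the exchanger that brings in leucine and other large neutral amino acids, had 362, 629 and 828 normalized reads in controls and 2763, 1794, 1290 and 2674 in KA (log2 fold change 1.81, SE 0.34, adjusted p = 0.00119 in edgeR's test). Slc7a1, the main carrier of arginine and lysine, had 391, 406 and 456 in controls against 1849, 1368, 1030 and 1480 in KA. Its log2 fold change was 1.78. Slc1a5, a carrier of glutamine and other small neutral amino acids, had 214, 148 and 284 against 874, 584, 475 and 673, a log2 fold change of 1.59. For these 3 carriers of different substrates the lowest KA library was KA 3. Slc43a2, a carrier of large neutral amino acids, rose by 1.01 on the log2 scale. Its relative Slc43a1 went the other way, from 401, 678 and 735 normalized reads to 35.6, 51.8, 36.6 and 64.4 (log2 fold change -3.68, SE 0.27, adjusted p = 5.40e-06 in edgeR's test), so that 2 carriers of overlapping substrates in 1 family changed in opposite directions. The third member, Slc43a3, had 10 reads in controls and 46 in KA, a ratio of 3.94 (interval 1.96 to 8.76), and is assigned to purine bases rather than amino acids.

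Among the tested Slc6 genes the largest fall was that of Slc6a2, the noradrenaline transporter, with 1176, 764 and 901 normalized reads in controls and 35.6, 71.0, 194 and 134 in KA (log2 fold change -3.12, SE 0.46, adjusted p = 0.000431 in edgeR's test). Slc6a4, the serotonin transporter, had 726, 756 and 752 in controls and 59.4, 145, 226 and 211 in KA, a log2 fold change of -2.22. Both carry amines, although the family number puts them in the amino acid class, and in both KA 1 was the lowest library. Slc6a19, a carrier of neutral amino acids known from gut and kidney, fell from 440, 472 and 292 to 90.0, 91.3, 107 and 74.8. Slc6a6, which takes up taurine, an osmolyte of the epidermis, fell from 7085, 4976 and 4989 to 1689, 2019, 2668 and 3841, a log2 fold change of -1.15. Slc6a9, a glycine carrier whose exons overlap those of B4galt2 and Ccdc24 on the other strand, had a log2 fold change of -1.03. Slc6a15 (-1.22) lost its call without control 3 (-1.03, adjusted p = 0.0542 in edgeR's test). Slc6a12, a betaine carrier, had 34 reads in controls, 23 of them in control 1, and 0 in KA. Against a floor of 3 counts over the KA group the ratio is 13.2, which leaves out the counting error of the controls.

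In the Slc7 family 3 genes were called higher and 4 lower, where 52.7% of all tested genes were higher. Slc7a6, which exchanges cationic for neutral amino acids and was the most abundant of the lower genes, fell from 2699, 3374 and 3116 normalized reads to 1051, 1263, 1485 and 1746 (log2 fold change -1.14). Slc7a4 (-0.81), Slc7a2 (-1.396) and Slc7a3 (-2.70) were also lower. Slc7a3, a relative of Slc7a1, had 52 reads in controls and 9 in KA. Slc7a2 overlapped between groups, since KA 2 at 114 lay above control 1 at 109. Slc38a3, a sodium-coupled glutamine carrier, had 104, 66.0 and 140 normalized reads in controls and 1.98, 1.13, 0 and 5.19 in KA, a ratio of counts of 50.8 (interval 25.5 to 119). The glutamate carriers Slc1a6 and Slc1a2 were rare. Slc1a6 fell from 11.4, 15.5 and 15.2 to 0.989, 2.25, 2.09 and 7.27, and Slc1a2 had 0 reads in controls and 16 in KA. Against a floor of 3 counts over the controls the ratio for Slc1a2 is 4.57, which leaves out the counting error of KA. Summed over the class, reads per kb of gene length went from 2376 ± 63.4 (SD, n = 3) to 1794 ± 293 (n = 4). That sum includes the taurine carrier Slc6a6 (mean 672 per kb in controls and 302 in KA). It also includes the amine carriers Slc6a2 (151 and 17.3) and Slc6a4 (164 and 35.4). The fall of the sum therefore does not describe carriers of amino acids proper, and in the class 6 genes were called higher and 13 lower.

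**Figure D2:**
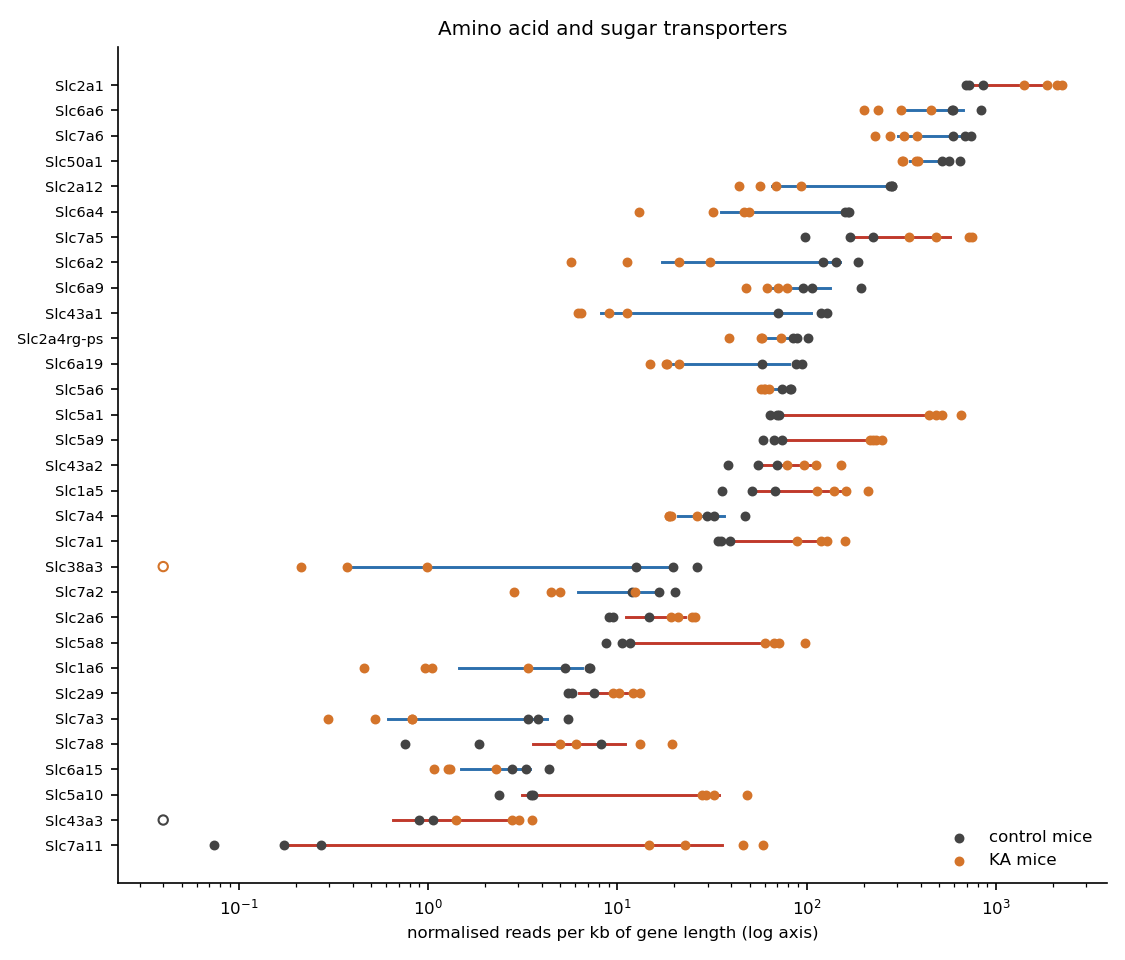
Normalized reads per kb of gene length (horizontal log axis) of the amino acid and sugar carriers with enough counts, 1 point per mouse (dark, control and orange, KA), with a line between the group means in red where the KA mean is higher and blue where it is lower. Open circles at the left edge stand for a library at 0 (Slc38a3 in KA 3 and Slc43a3 in control 2). Slc7a11 spans the widest gap and Slc2a1 is the most abundant.

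Genes of the amino acid response, in which Atf4 turns on synthesis, charging and uptake of amino acids, are listed for 17 of 26 in a list drawn up for this purpose. Of these 15 were higher and 2 lower, with a median log2 fold change of 1.09. All tested genes had 52.7% higher and a median of 0.36, and only genes that the authors called could be counted. Asns (1.27), Psat1 (1.09), Phgdh (1.52) and Atf4 itself (0.84) were higher, and Ddit4 (-1.36) and Ddit3 (-0.65) lower.

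Of 12 sugar carriers listed, 7 of the 11 tested were called higher and 4 lower, where 52.7% of all tested genes were higher, and 6 of the higher genes and 1 of the lower ones passed a log2 fold change of 1. Reads per kb summed over the class went from 1950 ± 149 (SD, n = 3) in controls to 3334 ± 409 (n = 4) in KA. The sodium-coupled family Slc5 supplied the largest rises.

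Slc5a1, which takes up glucose and galactose with sodium and is best known from the intestine, lies at chr5:33104219-33162870 on the plus strand. It had 294, 263 and 285 normalized reads in controls and 2673, 1825, 1972 and 2137 in KA (log2 fold change 2.94, SE 0.16, adjusted p = 9.01e-07 in edgeR's test). Controls lay close together, and every KA library was far above them. Slc5a8, a sodium-coupled carrier of lactate and short-chain fatty acids that the family number places here, went from 46.4, 56.7 and 62.6 to 525, 321, 360 and 380, a log2 fold change of 2.84. Slc5a9, which takes up mannose and glucose, went from 383, 304 and 350 to 1294, 1114, 1206 and 1159, a log2 fold change of 1.79 with an SE of 0.13. Slc5a10, a carrier of mannose and fructose, had 8.52, 8.25 and 5.61 in controls and 69.2, 76.6, 114 and 66.4 in KA (log2 fold change 3.44), but its exons overlap Fam83g and Grap on the other strand. Slc5a11, a carrier of inositol, had 4 reads in controls and 52 in KA, a ratio of 11.1 (interval 4.10 to 42.4). Slc5a6, which carries biotin and pantothenate, was the exception of the family at -0.40 and lost its call without control 1 (-0.37, adjusted p = 0.0602) and without control 3 (-0.38, adjusted p = 0.0650, both in edgeR's test).

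Slc2a1, the main glucose carrier of keratinocytes, had 2517, 2443 and 3006 normalized reads in controls and 7825, 6529, 4945 and 7325 in KA (log2 fold change 1.33, SE 0.17, adjusted p = 9.62e-05 in edgeR's test). By reads per kb it moved from rank 8 of the carriers in controls to rank 3 in KA. Slc2a12, another facilitative sugar carrier, had 1168, 1196 and 1194 in controls and 186, 241, 293 and 393 in KA, a log2 fold change of -2.09 with an SE of 0.21. It shares exon bases with Tbpl1 on the other strand. Slc2a9, a urate carrier, rose from 29.3, 38.1 and 28.1 to 48.5, 51.8, 66.8 and 61.3, and lost its call without control 3 (0.76, adjusted p = 0.0507 in edgeR's test). Slc2a6 went from 30.3, 28.9 and 47.3 to 80.1, 62.0, 66.8 and 83.1, a log2 fold change of 1.03. Slc50a1, a sugar carrier of internal membranes, fell from 758, 825 and 946 to 473, 566, 553 and 466. The pseudogene Slc2a4rg-ps had 302, 266 and 251 in controls and 219, 170, 173 and 115 in KA, a log2 fold change of -0.69. Genes of glucose use, from hexokinase to lactate dehydrogenase with their regulators, were listed for 19 of 21 and were higher for 17 and lower for 2, with a median of 1.10. Hk2 (2.36), Pkm (1.57) and Ldha (1.54) were higher, and Txnip (-1.71) and Pdk4 (-0.85) lower.

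Monocarboxylate carriers of the Slc16 family move lactate, pyruvate and related acids together with protons. Of 6 listed, 4 were called higher and 2 lower, where 52.7% of all tested genes were higher. Summed reads per kb of the 6 were 407 ± 40.0 (SD, n = 3) in controls and 1332 ± 291 (n = 4) in KA. Slc16a1, the widely expressed lactate carrier, had 339, 796 and 387 normalized reads in controls and 4847, 3670, 2798 and 3144 in KA (log2 fold change 2.84, SE 0.33, adjusted p = 9.57e-05 in edgeR's test). Slc16a3, the lactate exporter of glycolytic cells, had 219, 288 and 377 against 1885, 1133, 680 and 1294, a log2 fold change of 2.08. KA 1 was highest for both lactate carriers. Slc16a6 (0.87) and Slc16a11 (0.67) rose less, and Slc16a6 shares exon bases with Gm25540 on its own strand. The 2 that fell were Slc16a7, a high-affinity pyruvate carrier that went from 122, 101 and 70.6 to 24.7, 30.4, 26.1 and 36.3, and Slc16a10, which carries aromatic amino acids and went from 628, 586 and 648 to 184, 193, 292 and 255. Of partner subunits, kinases and sodium pump genes 10 of 15 are listed, 5 higher and 5 lower. They include Bsg (0.42), the chaperone of these lactate carriers, Emb (-0.97), a second chaperone, and Atp1b2 (-2.15), a beta subunit of the sodium pump.

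**Figure D3:**
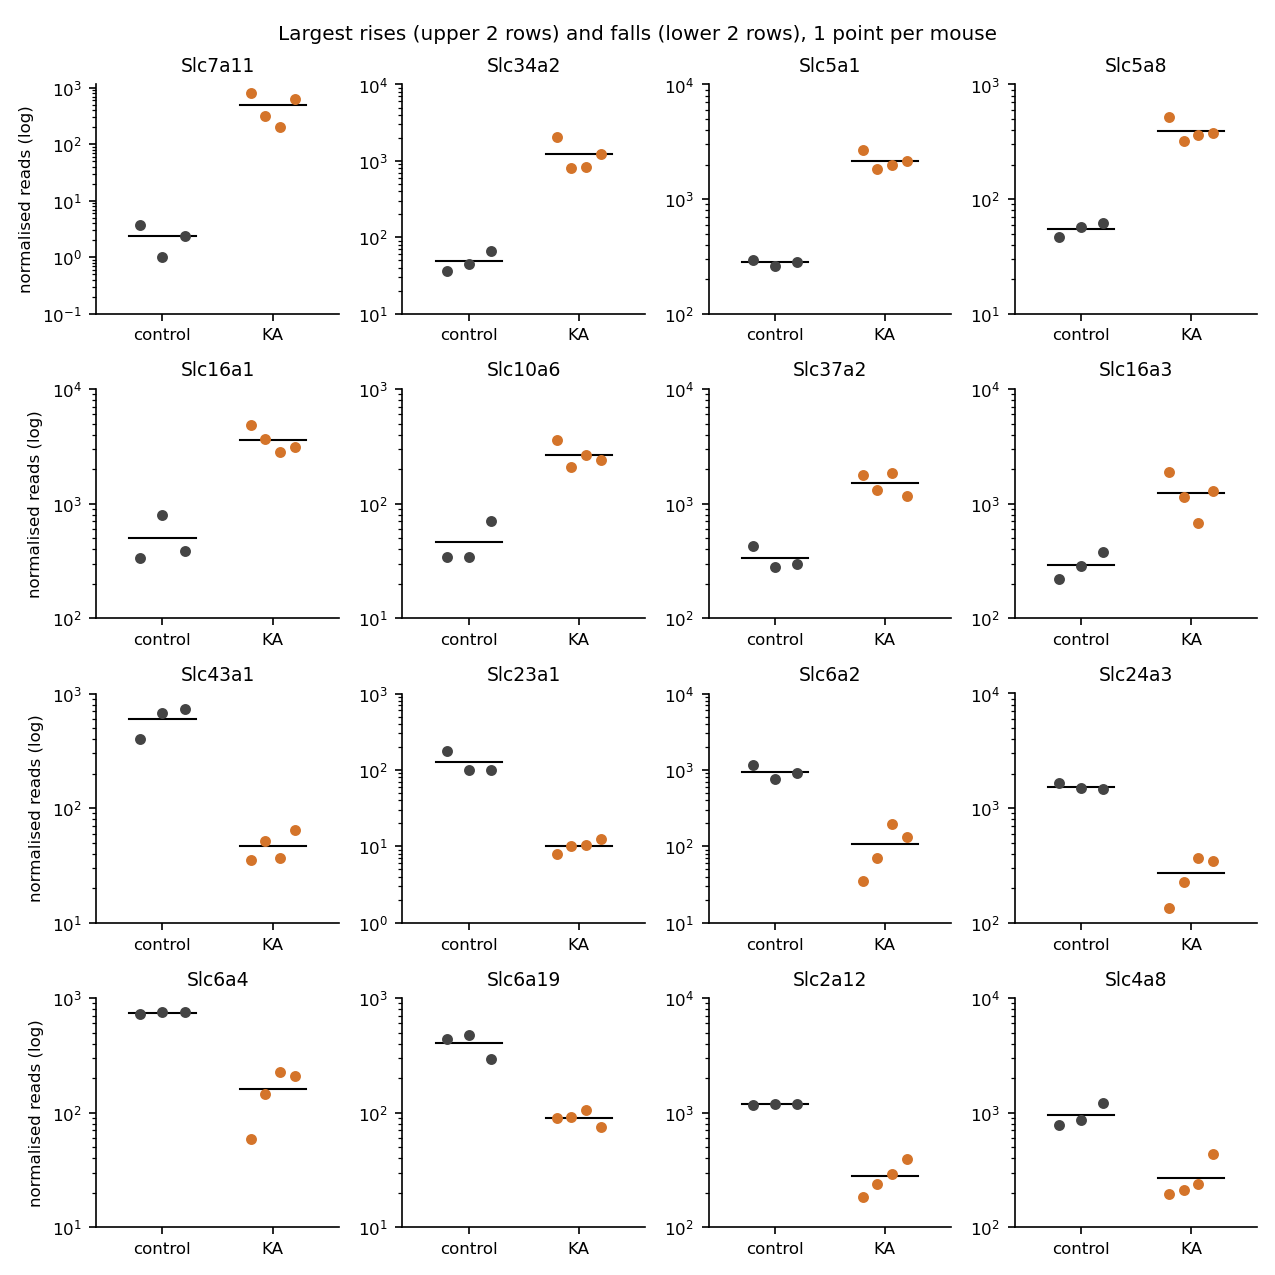
Normalized reads (vertical log axis, a scale of its own in each panel) of the 8 largest rises and 8 largest falls among called carriers with a mean of at least 50 normalized reads and no overlap of groups, 1 point per mouse with bars at group means. In Slc16a1 the highest control (796) lies well above the other controls yet below every KA mouse, while Slc2a12 controls nearly coincide.

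The mitochondrial carriers, Slc25, pass nucleotides, phosphate, keto acids and cofactors through the inner membrane. Of 23 listed and tested, 15 were called higher and 8 lower, where 52.7% of all tested genes were higher and 47.3% lower. The median log2 fold change was 0.56, the same as over all tested carriers (0.56), against 0.36 over all tested genes. The abundant ones rose: all 7 with the most reads per kb over all libraries (Slc25a5, Slc25a3, Slc25a1, Slc25a11, Slc25a39, Slc25a4 and Slc25a17) were called higher. Summed reads per kb were 10136 ± 979 (SD, n = 3) in controls and 19310 ± 1494 (n = 4) in KA.

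Slc25a5, an exchanger of ADP and ATP, was the most abundant carrier of all in both groups per kb of gene length. It had 5731, 6867 and 6429 normalized reads in controls and 17303, 14368, 13187 and 15714 in KA (log2 fold change 1.26, SE 0.14, adjusted p = 4.98e-05 in edgeR's test). Its share of all carrier reads per kb went from 13.6 to 15.4% in controls to 21.6 to 24.6% in KA, and that of the whole Slc25 family from 35.3 to 40.1% to 47.9 to 49.97%. Slc25a4, the second ADP and ATP exchanger, rose less (0.56), from 1324, 1524 and 1500 to 2283, 2208, 1899 and 2132. Slc25a3, the phosphate carrier, went from 6482, 8333 and 8672 to 17498, 14761, 14018 and 14365, a log2 fold change of 0.95.

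Carriers of dicarboxylates and amino acids ranged widely. Slc25a10, the dicarboxylate carrier, went from 247, 368 and 310 to 1004, 1133, 829 and 962, a log2 fold change of 1.67. Slc25a13 and Slc25a12, the aspartate and glutamate carriers of the malate-aspartate shuttle, had log2 fold changes of 1.398 and 0.81. Slc25a1, which exports citrate for lipid synthesis, went from 1281, 2254 and 1772 to 3910, 4397, 3984 and 3210. Slc25a39, linked to glutathione import, and Slc25a33, a pyrimidine nucleotide carrier, had log2 fold changes of 1.14 and 1.24, and Slc25a42, a carrier of coenzyme A, 1.04. Slc25a20, which imports acylcarnitines, rose by 0.66 on the log2 scale. Slc25a11, the oxoglutarate carrier and an overlap partner of Rnf167 on the other strand, changed by 0.32 and lost its call without control 1 (0.28, adjusted p = 0.0664) and without control 2 (0.29, adjusted p = 0.0771, both in edgeR's test). Slc25a17, a peroxisomal carrier of cofactors, was at 0.44. Slc25a26, which imports S-adenosylmethionine (0.43), lost its call without control 1 (0.43, adjusted p = 0.0599) or control 2 (0.38, 0.0934). Slc25a35 (0.64) lost it without control 2 (0.64, adjusted p = 0.0608), control 3 (0.47, 0.101) or KA 4 (0.59, 0.0558), all in edgeR's test.

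The mitochondrial carriers that fell were less abundant per kb than those at the top of the family. The highest of them in controls was Slc25a38, at 319 reads per kb and rank 24 among the listed carriers. Slc25a36, the second pyrimidine nucleotide carrier, went from 818, 902 and 896 to 358, 450, 390 and 440 (log2 fold change -1.09), opposite to Slc25a33. Slc25a24 and Slc25a23, calcium-regulated carriers of ATP and magnesium, fell by 0.94 and 0.93 on the log2 scale, and Slc25a38, a glycine carrier that heme synthesis needs, fell by 0.85. Slc25a40, a relative of Slc25a39, had a log2 fold change of -1.01, so this pair also moved in opposite directions. Slc25a18, a glutamate carrier with 14.4 to 21.8 normalized reads in controls, had a log2 fold change of -1.57, and Slc25a27 one of -0.88. Slc25a45 (-0.63) lost its call without control 2 (-0.56, adjusted p = 0.0760) or KA 4 (-0.51, 0.0566, both in edgeR's test). Of a list of mitochondrial import and pyruvate carrier genes 16 of 20 are listed, 13 higher and 3 lower, where 52.7% of all tested genes were higher. Tomm40 (1.43), the channel of the outer membrane import complex, was higher, and Mcu (-1.57), the pore of the calcium uniporter, was lower.

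**Figure D4:**
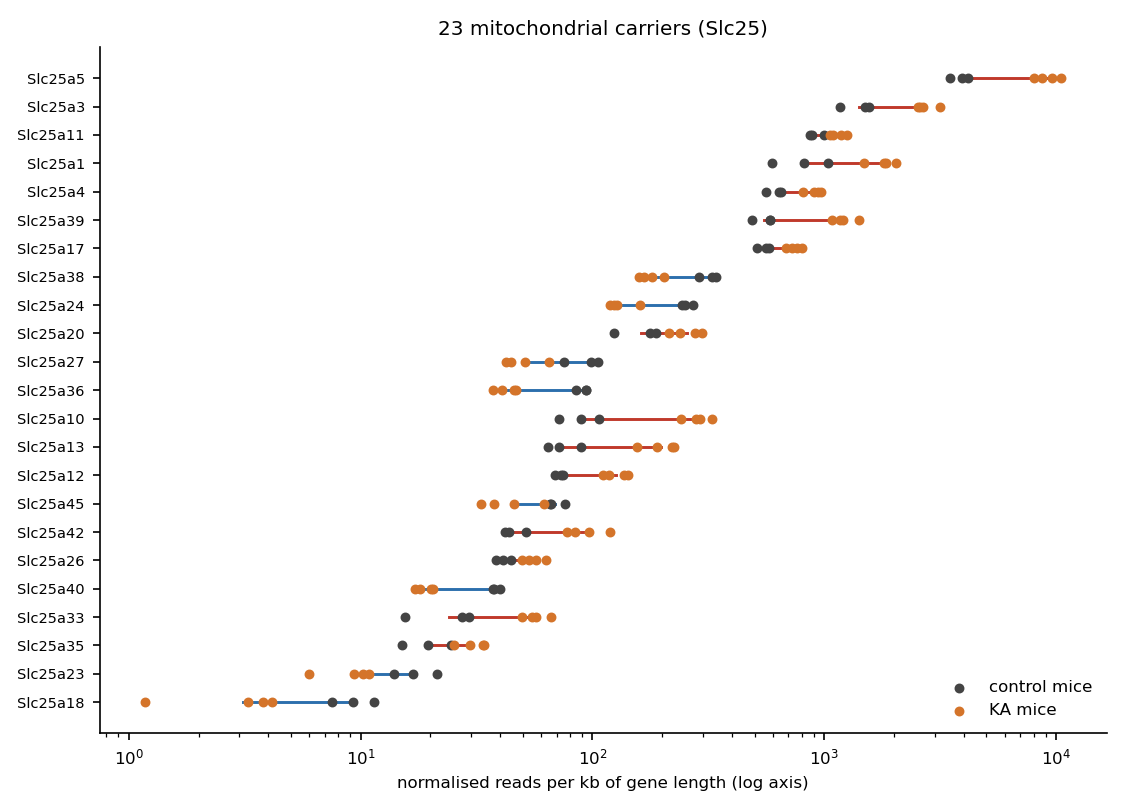
Normalized reads per kb of gene length (horizontal log axis) of the 23 Slc25 carriers in order of their control level, 1 point per mouse (dark, control and orange, KA), with a line between group means in red for higher and blue for lower. The 7 uppermost carriers are all higher in KA.

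Fatty acid carriers of the Slc27 family bind fatty acids and join them to coenzyme A. Both listed members changed, in opposite directions. Slc27a4, the member that the epidermal barrier requires, had 2821, 4356 and 3065 normalized reads in controls and 7368, 8603, 7821 and 5489 in KA (log2 fold change 1.10, SE 0.19, adjusted p = 0.000561 in edgeR's test). Slc27a2, a very long-chain acyl-CoA synthetase best known from liver and kidney, had 31.2, 24.7 and 24.9 in controls and a single read in KA, in KA 3. Its 88 reads against 1 give a ratio of 103 (interval 17.96 to 4101). Of 17 genes of fatty acid uptake and activation 10 are listed, 7 higher and 3 lower, where 52.7% of all tested genes were higher. The 10 include the binding protein Fabp5 (2.70), the scavenger receptor Cd36 (3.24) and the synthetase Acsl1 (-0.85).

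Of 13 metal carriers 10 were called higher, 6 of them by at least 1 on the log2 scale, and 3 lower, where 52.7% of all tested genes were higher. Slc39 proteins bring zinc into the cytosol and Slc30 proteins take it out. Slc39a2, a zinc importer found in epidermis, rose the most, from 87.1, 79.4 and 56.9 normalized reads to 317, 264, 282 and 224 (log2 fold change 1.87, SE 0.22, adjusted p = 6.27e-05 in edgeR's test), but shares exon bases with Mettl17 on its own strand. Slc39a11 (1.17), Slc39a6 (1.04) and Slc39a1 (0.77) rose with it, and Slc39a6 and Slc39a1 were the 2 most abundant of these, at 2807 to 3583 and 2693 to 3556 normalized reads in KA. Slc39a3 had 1141, 976 and 1078 in controls and 751, 700, 973 and 855 in KA. Its log2 fold change of -0.38 was not called without control 1 (-0.33, adjusted p = 0.0736), control 3 (-0.37, 0.0583) or KA 2 (-0.31, 0.0716). Slc39a8, an importer of zinc and manganese, overlapped between groups, with 471, 540 and 654 against 576, 616, 934 and 1294. Its call (0.62, adjusted p = 0.0422) was lost without control 1 (0.52, adjusted p = 0.146), control 2 (0.60, 0.0989), KA 3 (0.58, 0.0825) or KA 4 (0.35, 0.122), all in edgeR's test. Slc30a1, the zinc exporter of the plasma membrane, went from 612, 618 and 684 to 1231, 1012, 1248 and 1011 (log2 fold change 0.82). Slc30a2, which fills vesicles with zinc, fell from 79.5, 90.7 and 96.2 to 40.6, 54.1, 53.3 and 56.1 (-0.80).

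All 3 listed Slc41 genes, which carry magnesium, were higher. Slc41a1, an exporter, went from 542, 390 and 409 to 1086, 866, 828 and 1109 (log2 fold change 1.12), and Slc41a2 and Slc41a3 had values of 1.36 and 1.01, the call of Slc41a3 being lost without control 1 (0.87, adjusted p = 0.0525 in edgeR's test). The copper carriers diverged. Slc31a1, the high-affinity importer, had 1213, 1012 and 1064 in controls and 1542, 1527, 1724 and 1654 in KA (0.56), while Slc31a2, its relative on internal membranes, had 2915, 2701 and 2899 and then 964, 1010, 1475 and 1495 (-1.20). Other genes of metal handling are listed for 9 of 22, with 6 higher and 3 lower, where 52.7% of all tested genes were higher. The 9 include the transferrin receptor Tfrc (1.26) and metallothionein Mt1 (-0.84).

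Carriers of inorganic ions and bicarbonate went both ways. Of 18 listed, 7 were called higher and 10 lower, with 1 not tested, where 47.3% of all tested genes were lower, and their median log2 fold change was -0.48. Slc34a2, a sodium-phosphate cotransporter known from lung and intestine, had 36, 44.3 and 67.4 normalized reads in controls and 2070, 802, 824 and 1243 in KA (log2 fold change 4.63, SE 0.42, adjusted p = 3.45e-05 in edgeR's test). Its gene lies at chr5:53038081-53071664. The other phosphate carriers moved less and apart, Slc20a1 by 0.86 and Slc20a2 by -0.48. Slc24a3, which exchanges sodium for calcium and potassium, fell from 1648, 1514 and 1464 to 136, 229, 369 and 346 (-2.52).

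Carriers of acid and base equivalents went both ways. Slc4a7, a sodium-bicarbonate cotransporter, had 98.5, 73.2 and 69.8 in controls and 390, 281, 198 and 309 in KA (log2 fold change 1.87). Slc4a8, a sodium-driven bicarbonate exchanger, had 784, 870 and 1226 against 194, 211, 239 and 435 (-1.83). Slc9a3, the sodium-proton exchanger of gut and kidney, had 63.4, 71.1 and 54.5 against 7.91, 3.38, 6.27 and 5.19 (-3.43), while the scaffold Slc9a3r1, which binds it, was at 0.40. Slc26a9, a chloride carrier, was even within both groups, at 44.1 to 52.1 and 172 to 185 normalized reads (1.92). Slc26a4, which exchanges chloride and iodide, had 0 reads in controls and 31 in KA, of which 23 lay in KA 1 and 0 in KA 4. Against a floor of 3 counts over the controls the ratio is 8.86, which leaves out the counting error of KA. Slc26a10 (1.32), Slc4a11 (0.80) and Slc4a9 (-0.99) were called as well. Slc26a11, whose groups overlapped (-0.59), lost its call without control 1 (-0.41, adjusted p = 0.140), KA 2 (-0.48, 0.0800) or KA 4 (-0.53, 0.0639, all in edgeR's test). In the Slc12 family the potassium-chloride cotransporters Slc12a4 (-0.69) and Slc12a5 (-1.66), which export chloride and lower cell volume, were lower, as was the related Slc12a9 (-0.40), whose call was lost without control 3 (-0.33, adjusted p = 0.0739 in edgeR's test). Slc12a4 had 2311, 1916 and 2081 in controls and 1043, 1305, 1264 and 1614 in KA.

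Carriers of nucleosides, nucleotide sugars and sugar phosphates had 10 of 15 tested genes called higher and 5 lower, mostly by less than 1 on the log2 scale. Of all tested genes 52.7% were called higher. Slc37a2, a sugar phosphate carrier of the endoplasmic reticulum, stood apart, with 428, 284 and 296 normalized reads in controls and 1775, 1310, 1871 and 1162 in KA (log2 fold change 2.19, SE 0.22, adjusted p = 2.57e-05 in edgeR's test). Its relative Slc37a1 fell, from 557, 503 and 573 to 127, 170, 214 and 170 (-1.68), and the glucose 6-phosphate carrier Slc37a4 was at 0.53. Slc28a3, which concentrates nucleosides with sodium, had 158, 113 and 152 against 520, 240, 275 and 256 (1.19). Slc29a1, the equilibrative nucleoside carrier, was slightly lower (-0.44), a call lost without control 3 (-0.36, adjusted p = 0.0548 in edgeR's test). Of 11 listed Slc35 genes 6 were called higher and 3 lower. Among the tested ones Slc35f2 changed the most, from 82.4, 76.3 and 91.4 to 327, 302, 258 and 238 (1.75). The Golgi carriers Slc35c1 for GDP-fucose and Slc35a2 for UDP-galactose had values of 0.66 and 0.46, and Slc35f6 (0.77), Slc35b1 (0.69), Slc35a4 (0.54) and Slc35d2 (-0.79) also changed by less than 1. Some of the smallest changes were not called once a library was left out. Slc29a3, a nucleoside carrier of lysosomes (0.37), lost its call without each of the controls or KA 4 (0.30 to 0.39, adjusted p = 0.0513 to 0.0841), Slc35e2 (-0.40) without control 1 (-0.31, 0.0983) or KA 2 (-0.40, 0.0513), and Slc35f5 (-0.42) without control 1 (-0.37, 0.0522), in edgeR's test. Slc35f1 and Slc35g2 were not tested, with 18 reads in controls and 1 in KA (ratio 21.0, interval 3.32 to 875) and with 39 and 9 (5.06).

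Of 7 carriers of vitamins and choline 5 were called higher and 2 lower, where 52.7% of all tested genes were higher. Slc23a1, a sodium-coupled carrier of vitamin C, fell from 179, 101 and 100 normalized reads to 7.91, 10.1, 10.4 and 12.5 (log2 fold change -3.62, SE 0.33, adjusted p = 1.53e-05 in edgeR's test). Slc23a4, a related gene, was low and higher in KA, with 12.3, 16.5 and 16.8 against 71.2, 45.1, 43.9 and 65.4 (1.88). The choline carriers were abundant and moved apart. Slc44a2 had 6997, 6446 and 6849 in controls and 4425, 4811, 5766 and 4725 in KA (-0.46), and Slc44a1 had 1400, 1501 and 1418 against 3106, 2480, 2620 and 2989 (0.96). The folate carrier Slc19a1 (0.74) and the riboflavin carrier Slc52a2 (0.61) were higher, as was Slc46a2 (0.59), whose call was lost with RLE size factors (0.42, adjusted p = 0.0719 in edgeR's test).

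Among carriers of peptides, organic ions and bile salts 4 were called higher and 2 lower, where 52.7% of all tested genes were higher. Slc10a6, which takes up sulfated steroids, had 34.1, 34 and 71.4 normalized reads in controls and 358, 211, 263 and 241 in KA (log2 fold change 2.51, SE 0.32, adjusted p = 8.79e-05 in edgeR's test). Slc15a3, a lysosomal peptide carrier of immune cells, had 52.1, 79.4 and 79.4 against 270, 291, 202 and 175 (1.74), and its exons overlap Tmem132a on the other strand. Slc22a18 (0.93) and Slc22a15 (0.71) made up the other rises. The 2 that fell carry carnitine and ergothioneine. Slc22a4 went from 1873, 1824 and 1504 to 355, 477, 901 and 615 (-1.56), and Slc22a5, the main carnitine carrier, from 327, 349 and 333 to 155, 177, 218 and 217 (-0.81). The remaining families held Slc13a4, a sulfate carrier that fell from 31.2, 42.3 and 31.3 to 0.989, 1.13, 6.27 and 5.19 (-3.31), Slc17a9, which loads vesicles with ATP (-1.28), and Slc33a1, which carries acetyl-CoA into the endoplasmic reticulum (0.61).

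**Figure D5:**
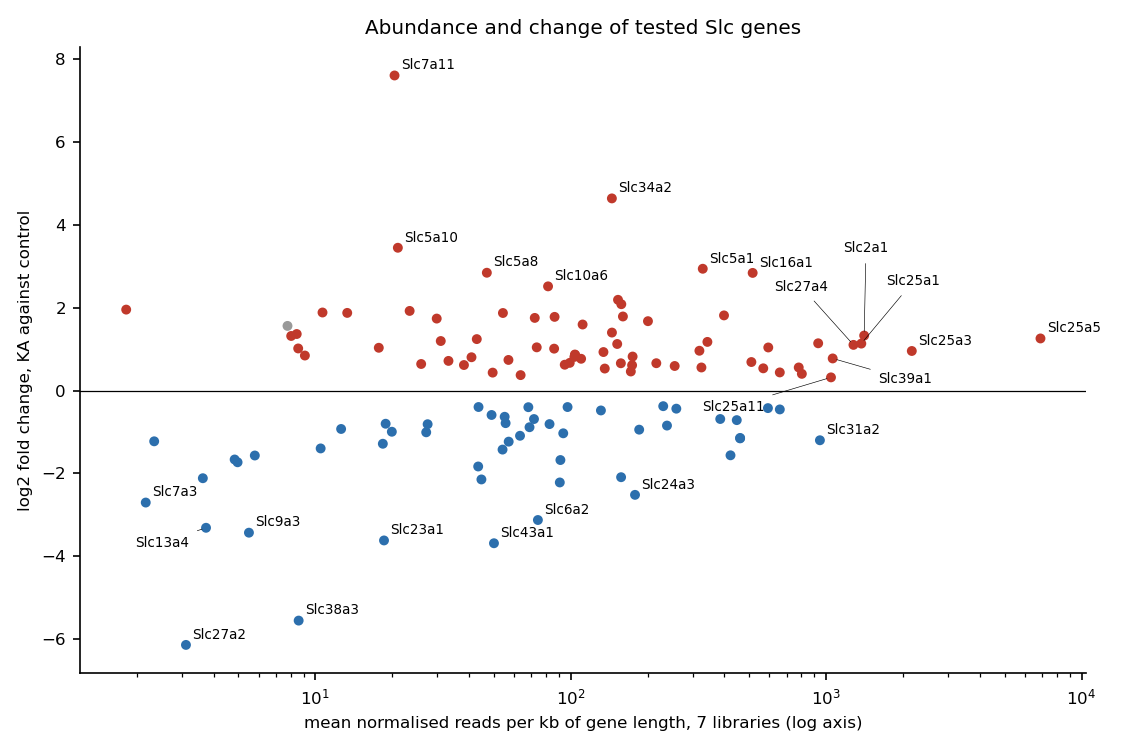
Log2 fold change (vertical axis, KA against control) against mean normalized reads per kb of gene length over the 7 libraries (horizontal log axis), 1 point per tested carrier, red for called higher, blue for called lower and grey for not called. The 7 most abundant carriers, with Slc25a5 at the right edge (1.26), lie above 0, the next, Slc31a2, below (-1.20), and the genes with the largest falls, Slc27a2 and Slc38a3, are at low abundance.

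By level, the carriers' reads per kb summed to 25580 to 27090 in controls and 37170 to 42770 in KA, without overlap. Such a sum was not made for all listed genes, so it is not set against them. It rests much on Slc25a5, whose mean was 3853 per kb in controls and 9200 in KA, and 52 carriers were called lower. The median over the 129 carriers was 411 normalized reads, against 460 over all 7091 listed genes. KA libraries differed in how far they lay from controls. KA 1 was the farthest library for 35 of the 70 higher carriers (50%, against 61.4% of all higher genes) and for 31 of the 52 lower ones (59.6%, against 56.2%), and KA 3 was the nearest for 26 (37.1%, against 50%) and 27 (51.9%, against 47.4%). KA 1 and KA 2 were the males. For all 122 called carriers both KA females lay beyond the 2 control females, and both KA males beyond the 1 control male. The shares of all called genes were 95.7% (females) and 99.7% (males). Because the carriers were called on these same libraries, such sides follow largely from the call, and an effect of sex was not tested by them. Size factors computed from the listed genes alone shifted the log2 fold changes of all tested genes by a median of -0.134 with TMM and -0.172 with RLE. No carrier changed direction with them, and with TMM Slc25a11, Slc25a26, Slc25a35, Slc29a3, Slc39a8 and Slc9a3r1 lost their call (116 called). Exon bases are shared with a gene on the other strand by 35 of the carriers and with one on the same strand by 4. Whether counting used strand is not given in the sources used here, so reads of such pairs cannot be told apart.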

How the data were processed

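Per the submitters' processing notes, fastp, STAR 2.6.1d, featureCounts 1.5.0-p3 and DESeq2 1.40.2 were used with the mouse build mm10. The strand setting is not given in the sources used here. Per the file headers the table holds raw read counts per gene and the authors' normalized reads, a signal that is the count divided by a size factor per library (0.888 to 1.247). Further deposited columns are a log2 fold change, a test score and p-values of the authors, and every adjusted p-value listed is under 0.05 (7091 of 19407 genes adjusted, 36.5%).

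Counts as deposited were fitted with edgeR 4.0.16 (glmQLFit, glmQLFTest, robust) in R 4.3.3, with the authors' size factors, since factors from called genes alone may be off. filterByExpr by group kept 6749 genes and left out 342. P-values were Benjamini-Hochberg adjusted over all tested genes, with a threshold of 0.05. Standard errors were had by dividing each log2 fold change by the root of its F value, and the common biological coefficient of variation was 0.193. The code was tested on simulated data. Intervals are exact 95% intervals for a ratio of read totals and cover counting error only. P-values measure the spread between 7 mice. The 2 runs of animal numbers in the titles have no stated meaning.

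Members, classes by family number, markers and gene lists were chosen with earlier results of these data known. The rule for named genes took called carriers without overlap and with a mean of at least 50 normalized reads: the 8 largest rises and 8 largest falls, and the 2 largest of each per class. To these it added the 8 most abundant carriers per kb, the listed members of families 2, 27, 30 and 39, and a preset list, which gave 58 genes. Carriers named beyond it were chosen after their values were seen. Gene positions are those of the table, and 126 of 129 equal GENCODE M21 on GRCm38. Alternatives were TMM and RLE factors, other filters, DESeq2 1.42.0, limma-voom (limma 3.58.1), covariates, a replicate block, females alone, each replicate left out, stricter thresholds and the authors' calls. Values of some genes are not reported here.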

Additional observations from a re-analysis of the deposited data

Results flagged for a closer look

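Among the 58 carriers named by rule, in which the group of 4 KA mice was searched for a sample far from the others, 1 was found, where chance gives about 2.9. Slc27a2 held a single read in KA 3 and none in the other KA libraries, so the gap between KA 3 and the others equals the whole range (a ratio of 1). A single read carries no more than counting error.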

How the results depend on the processing

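Beside 122 carriers called, 70 higher and 52 lower, a minimum log2 fold change of 1 left 68, 38 and 30. Leaving out each replicate in turn gave 113 to 121 called, 66 to 70 higher and 47 to 52 lower. No other alternative moved these counts by over 1.5 times. They ran from 91 called in females alone to 128 without a filter and 129 in the authors' deposited table, and the adjustment over the 19407 genes the authors tested, added after the data were seen, gave 111. With a replicate block by sample number 112 were called, 65 higher and 47 lower. The numbers pair no samples: deviations of same-numbered samples correlated at -0.232, 0.201 and -0.083. Over 58 named carriers and 21 alternatives, 1163 of 1218 values kept their direction and side of the threshold, 55 kept only the direction and 0 reversed. Apart from stricter thresholds and settings that tested fewer genes, the calls lost were of changes under 1 on the log2 scale, except those of Slc6a15, Slc41a3, Slc43a3, Slc1a6, Slc26a10 and Slc2a6; the cause was not tested. Depth limits carriers with few reads, such as Slc27a2 and Slc35f1, whose intervals are wide.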

Other observations

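Within several families a pair of related carriers moved apart, so that their ratio differed between the groups in every library. The pairs were chosen after their values were seen, and no test was made. All ratios are of normalized reads per kb of gene length. Slc2a1 stood to Slc2a12 at 2.47 to 3.04 in controls and at 20.4 to 50.9 in KA. The ratio of the lactate carrier Slc16a1 to the pyruvate carrier Slc16a7 was 7.42 to 21.1 and then 231 to 524. Slc31a1 to Slc31a2, the copper carriers, stood at 0.174 to 0.198 and 0.526 to 0.760. Slc37a2 to Slc37a1 went from below 1 (0.282 to 0.420) to above it (3.72 to 7.65). The ratio of the phosphate carriers Slc20a1 and Slc20a2 was 0.424 to 0.476 and 0.940 to 1.43, and that of the choline carriers Slc44a1 and Slc44a2 was 0.250 to 0.291 and 0.568 to 0.877. For the ADP and ATP exchangers Slc25a5 and Slc25a4 it moved less, from 6.13 to 6.44 in controls to 9.30 to 10.8 in KA.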
